A study of Rattus with 6 samples.

Results

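The 200 brightest circular RNA (circRNA) probes of a rat heart microarray were taken from 14145 circRNA probes, or 1.41% of them. They were chosen by the highest mean of the 6 log2 values in the authors' deposited series table, with ties settled by probe ID. High signal is therefore what selected them and is given as a description. The mean covered both groups equally and used no difference between them. At the edge of the set, the last members were ASCRPR008704 and ASCRPR002894, with mean deposited log2 values of 11.026 and 11.023. The next probes, ASCRPR004133 and ASCRPR010897, both had 11.016, so the boundary falls within a dense run of probes and marks no break in brightness.

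The study measured heart muscle of 6 male SD (Sprague-Dawley) rats on 6 one-colour arrays. In 3 rats the left anterior descending coronary artery (LAD) was ligated for 40 min and then reperfused for 2 h, while 3 control rats had the thread placed at the same position and left untied, with the same 2 h before sampling. All rats were of specific pathogen free grade. Age and the part of the heart sampled are not given in the labels. The source label reads ischemia-reperfusion for the control hearts too, so groups were taken from the sample titles. The design text describes 6 animals, and each array was treated as 1 animal.

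A circRNA forms when the end of an exon is joined back to the start of the same or an earlier exon, which leaves a closed ring with no free ends. Such rings resist the exonucleases that degrade linear RNA and tend to be long-lived, and heart muscle, whose cells divide rarely, is known for abundant circRNAs from genes of the contractile and calcium-handling apparatus. Array probes for circRNAs are usually placed across the back-splice junction, the sequence that the linear transcript lacks. Probes bind their targets with different strength, so a brightness order ranks probes on this array and is not an order of RNA amounts. The files pair each probe with an ID only. Host genes, probe sequences and heart marker genes were therefore not analysed here, and the circRNAs are called by probe ID. In tissue RNA, fewer cells of a type and less of a circRNA per cell cannot be told apart.

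All 200 members were marked by the scanner software as well above background on all 6 arrays, and 0 of their spots were saturated. The lowest ratio of a member's median spot intensity to its local background was 84. All 200 therefore passed the detection filter and were tested, among 12967 probes in all. One spot was marked as an outlier, that of ASCRPR006667 on control array 2, and this value was left out of the fits. Members lay 89.1-fold to 155-fold above the median circRNA probe of the same array, when the members' median intensity is compared. In the ischemia-reperfusion hearts, numbered 1 to 3, that median was 3334, 3006 and 4377 intensity units, and in control hearts 1 to 3 it was 3841, 5194 and 3968. The brightest member exceeded the dimmest by 43.1-fold to 89.4-fold within an array.

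A small number of probes carried much of the circRNA signal. Of the summed processed intensity of all circRNA probes, the 200 members held 44.2%, 48.8% and 45.7% on the ischemia-reperfusion arrays, in the order of their numbers, and 45.7%, 50.8% and 50.5% on the controls. The group means were 46.2% ± 2.32 and 49.0% ± 2.86 (SD, n = 3 each), and the groups overlapped, with ischemia-reperfusion array 2 above control array 1. The 100 brightest held 33.5% to 39.0%, the 50 brightest 24.1% to 28.7% and the 10 brightest 11.2% to 14.0% over the 6 arrays. The number of probes needed to reach 50% of the signal was 278, 210 and 258 after ischemia-reperfusion and 261, 189 and 190 in controls. By this count control arrays 2 and 3 had the most concentrated signal, and control array 1 lay among the ischemia-reperfusion arrays. The order differed among the few brightest probes. Each array's own 10 brightest held 14.4% on ischemia-reperfusion array 2, against 11.8% and 13.0% on control arrays 2 and 3. Within the set, 36 to 41 members made up 50% of the members' own signal on every array.

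**Figure D1:**
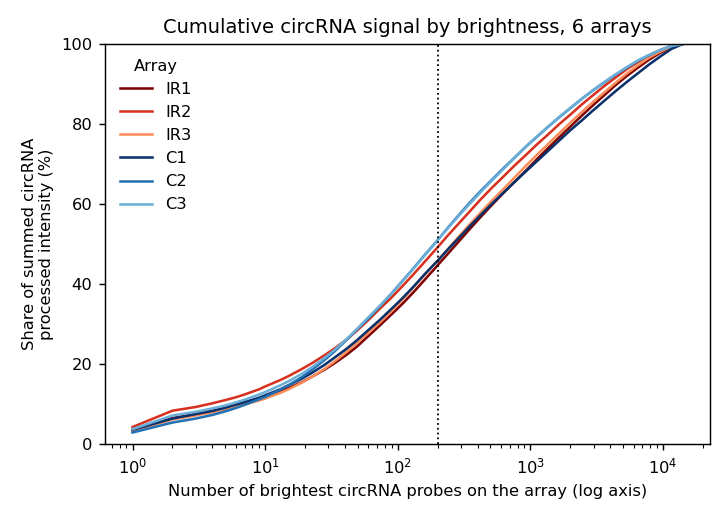
Share of summed circRNA processed intensity (%, vertical axis) held by the brightest probes of each array, against their number on a log axis, for ischemia-reperfusion arrays (IR1 to IR3, red shades) and control arrays (C1 to C3, blue shades). At the dotted line of 200 probes the members, which are nearly the same probes, held 44.2% to 50.8%, and the lines of both groups interleave.

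A pair of probes stood above all others. ASCRPR003948 had processed intensities of 71042, 81338 and 86088 after ischemia-reperfusion and 75755, 78696 and 91575 in controls, again by array number. ASCRPR013743 had 81352, 85259 and 93340, and then 98228, 90463 and 83220. Together they held 5.39% to 8.35% of the circRNA signal of an array, and they occupied the first and second ranks on all 6 arrays. ASCRPR013743 was the brighter on 5 arrays and ASCRPR003948 on control array 3. In the deposited table both had the same mean, 16.332, and each column gave 16.27 and 16.39 to this pair. There ASCRPR013743 had 16.39 on ischemia-reperfusion array 1 and control arrays 1 and 2, and ASCRPR003948 on the other arrays. On ischemia-reperfusion arrays 2 and 3 the deposited order was thus opposite to that by processed intensity. Neither differed beyond the spread between animals, since their log2 differences were -0.01 (SE 0.25) and -0.03 (SE 0.20) and limma gave adjusted p = 0.988 and 0.953.

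The next 8 members were ASCRPR011276, ASCRPR005480, ASCRPR005965, ASCRPR001748, ASCRPR009150, ASCRPR001036, ASCRPR012050 and ASCRPR012821. ASCRPR011276 ranked 3rd on 4 arrays, and 7th and 8th on control arrays 2 and 3. Its signal, as log2 over the 75th percentile of circRNA probes of the same array, was 8.14, 8.17 and 8.14 after ischemia-reperfusion and 8.33, 8.13 and 7.84 in controls. The 3 ischemia-reperfusion values lay inside the range of the controls. ASCRPR005965 had 7.54, 7.80 and 7.80 against 7.85, 8.27 and 8.22 on the same log2 scale, a difference of -0.40 (SE 0.19, limma adjusted p = 0.428). Its groups did not overlap on this scale, with control array 1 next to ischemia-reperfusion arrays 2 and 3, but they overlapped in the deposited table. ASCRPR001748 varied most among these 8, from 6.65 on ischemia-reperfusion array 1 to 8.30 on control array 3, and its groups overlapped. None of the 10 brightest passed the test, with log2 differences from -0.79 for ASCRPR012050 to 0.06 for ASCRPR012821. On no array did one of the 10 rank below 20th.

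Most members kept to the top on every array, and about as often for smaller sets as for the 200. Of the 200 members, the ischemia-reperfusion arrays held 181, 180 and 190 among their own 200 brightest circRNA probes by processed intensity, and the control arrays 192, 185 and 183. On all 6 arrays together 156 members, or 78.0%, stayed in the top 200. Of the first 20 members 14 stayed in the top 20 on all arrays, of the first 50 members 36 in the top 50, and of the first 100 members 71 in the top 100. Of the other 44 members, 11 left it on 1 array, 23 on 2, 8 on 3 and 2 on 4 arrays. Of the 44, 37 were placed after 150th in the deposited mean, where the limit at rank 200 is nearest. Choosing the set by mean processed signal in place of the deposited table kept 198 of the 200.

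The range of a member's rank over the 6 arrays had a median of 45.5 places, with 1 place at the least. It was 10 places or fewer for 17 members, over 50 for 86 and over 100 for 25. ASCRPR011642 had the widest range, at ranks 110, 156 and 194 after ischemia-reperfusion and 178, 278 and 368 in controls. ASCRPR002037 came next, at ranks 100, 122 and 173 and then 166, 240 and 329. Both probes ranked best on ischemia-reperfusion arrays 1 and 2 and worst on control arrays 2 and 3. The highest-placed member to leave the top 200 on any array was ASCRPR000684, placed 66th, named after its values were seen. It ranked 77th, 232nd and 30th after ischemia-reperfusion and 27th, 86th and 44th in controls. Its within-group SD of 0.82 was the largest in the set.

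**Figure D2:**
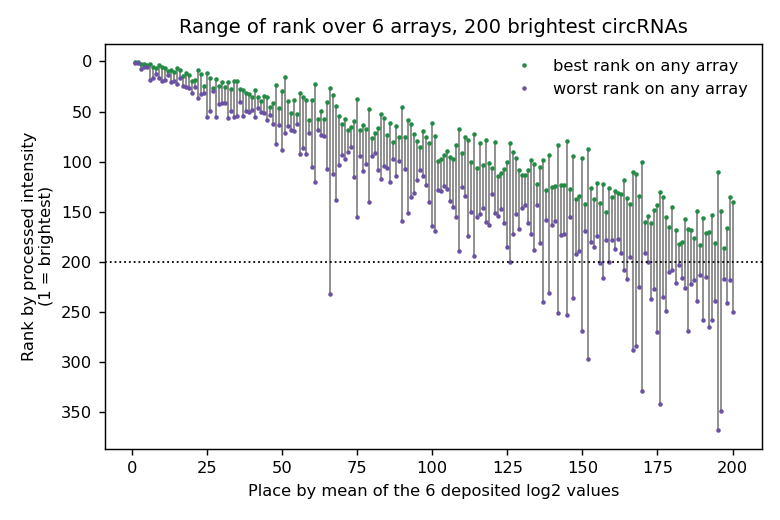
Best and worst rank by processed intensity over the 6 arrays (vertical axis, 1 at the top) for each of the 200 members, placed along the horizontal axis by mean deposited log2 value. Ranges widen from 1 place for the brightest probes to 258 places for ASCRPR011642, and 44 members cross the dotted line at rank 200 on at least 1 array.

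The question of the group comparison was which circRNAs differ in the heart 2 h after reperfusion. Of the 200 members, 0 passed a limma adjusted p of 0.05, as did 0 (0.0%) of the 12967 probes tested, and the smallest adjusted p of a member was 0.428. At an unadjusted p under 0.05 there were 9 members higher and 42 lower, where 3.91% and 7.53% of all tested probes were. With a change of 1.5-fold or more required as well, 7 members of 200 were higher and 20 lower after ischemia-reperfusion. Over all tested probes those shares were 2.16% and 3.42%. By fold alone, 7 members were at least 1.5-fold higher and 23 lower, beside 2.98% and 6.39% of all probes.

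The median log2 difference of the members was -0.32, beside -0.11 over all probes tested, and 159 of 200 members (79.5%) had a negative difference, beside 62.2% of all probes. In brightness order, the median was -0.43 in the first 50 members, then -0.30 and -0.31, and -0.29 in the last 50. The next 200 probes, which are not members, had -0.29. The 3 values of one group lay wholly below those of the other for 32 members of 200 and wholly above for 2, where 11.3% and 5.95% of all tested probes did so. The within-group SD of the members had a median of 0.29 on the log2 scale, against 0.26 for all tested probes, so high intensity did not go with smaller spread between animals.

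The size of these differences, and the direction with more members past 1.5-fold, depended on the scaling. The members' median difference stayed negative under each scaling, though only at -0.02 with cyclic loess. In the deposited log2 table, whose columns have nearly equal distributions, the median difference was -0.08 for the members and -0.01 for all probes. The 200 probes next in brightness, which are not members, had -0.13, with 128 of 200 negative. The 600 probes after those had -0.12, with 390 of 600 negative. Both medians were lower than that of the members, so the negative shift in the deposited values was not particular to the members. There 122 members (61.0%) were negative and 15 were at least 1.5-fold higher with an unadjusted p under 0.05, against 2 lower. The shares over all probes were 1.76% and 0.17%. By fold alone the counts were 15 and 3, beside 1.84% and 0.224%. The groups did not overlap for 3 members higher and 40 lower in that table, beside 9.11% and 8.58% of all probes. With quantile scaling the counts at 1.5-fold with an unadjusted p were also 15 higher and 2 lower, beside 3.91% and 1.67% of all probes. Centring each array on the median of the members gave 11 and 2, beside 4.47% and 0.0925%. Cyclic loess gave 19 higher and 2 lower, beside 4.35% and 1.89%. Array quality weights on the 75th percentile scale gave 10 higher and 77 lower, beside 6.17% and 6.22%. Those weights were 0.244 for control array 1 and 0.901 to 2.17 for the other arrays, so that fit largely discounts control array 1. Scaling each array to the median circRNA probe gave 9 higher and 8 lower, beside 3.49% and 3.55%. That scaling left 10 members higher and 0 lower without overlap between the groups, beside 10.4% and 6.23% of all probes. All 41 members that were positive on the 75th percentile scale were also positive in the deposited table. Of the 159 negative on that scale, 122 were negative in both and the rest were positive in the deposited table. No share over all probes is given for this agreement, so it is not read as a result about the members.

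**Figure D3:**
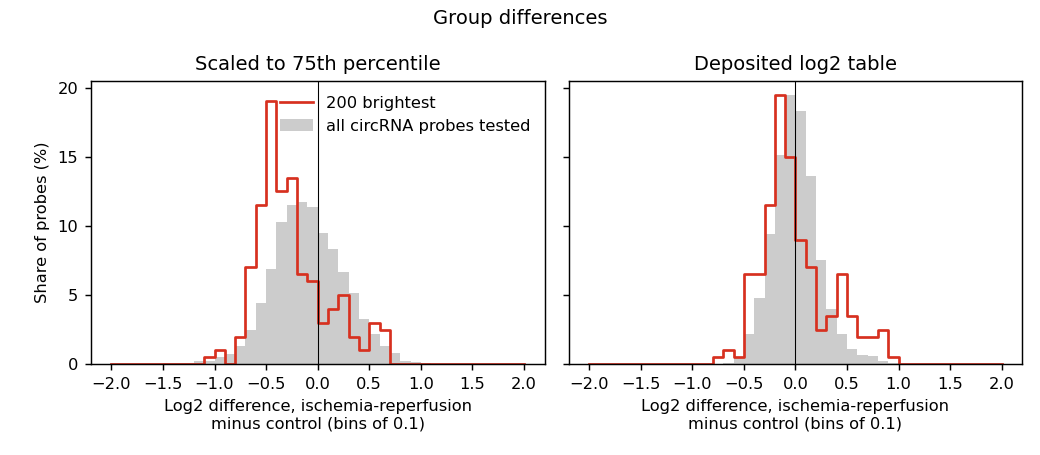
Share of probes (%) in bins of 0.1 of the log2 difference, ischemia-reperfusion minus control, for the 200 members (red line) and all 12967 probes tested (grey bars), scaled to the 75th percentile (left) and in the deposited log2 table (right). The members' median is at -0.32 on the left and -0.08 on the right, beside -0.11 and -0.01 for all probes. The 200 probes next in brightness, not drawn apart, had -0.29 and -0.13. On the right 15 members are at least 1.5-fold higher and 3 lower, beside 1.84% and 0.224% of all probes.

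Single arrays moved these counts. Without control array 1, the 1.5-fold counts were 10 members higher and 77 lower, beside 7.29% and 6.69% of all probes. Without control array 2 they were 2 and 3 (background 1.21% and 4.16%), and without control array 3 they were 0 and 5 (0.74% and 3.53%). Without ischemia-reperfusion array 1 there were 0 and 3 (0.756% and 4.09%), without array 2 there were 0 and 15 (1.36% and 1.45%), and without array 3 there were 14 and 22 (3.58% and 5.19%). The median difference of the members stayed negative in all 6 of these fits, from -0.52 without control array 1 to -0.21 without control array 3. With the replicate number as a block, 0 members passed the adjusted threshold, beside 0.131% of all probes, and the smallest adjusted p of a member was 0.0673. At an unadjusted p under 0.05 the block gave 13 members higher and 81 lower, beside 6.84% and 15.3%.

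Among the members whose groups did not overlap on both the 75th percentile scale and in the deposited table, 19 of 200 were lower after ischemia-reperfusion and 1 was higher, beside 4.9% and 4.22% of all tested probes. ASCRPR011712 had the largest negative difference. Its log2 signals over the 75th percentile were 5.18, 5.49 and 5.70 after ischemia-reperfusion and 5.88, 7.09 and 6.70 in controls. The difference was -1.10 (SE 0.31) at a limma adjusted p of 0.428, and -0.79 in the deposited table. ASCRPR012907 had 5.45, 5.90 and 6.13 against 6.2, 7.09 and 7.09, a difference of -0.97 (SE 0.29, limma adjusted p = 0.428). In both probes control array 1 lay closer to ischemia-reperfusion array 3 than to the other controls.

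ASCRPR012050, also among the 10 brightest, had 6.79, 7.15 and 7.02 after ischemia-reperfusion and 7.35, 8.29 and 7.67 in controls, with a log2 difference of -0.79 (SE 0.26, limma adjusted p = 0.428). The one higher member, ASCRPR003038, had 6.24, 6.16 and 5.85 against 5.73, 5.49 and 5.26, a difference of 0.59 (SE 0.20, limma adjusted p = 0.428). Its deposited difference was 0.88. The members with the widest rank range had differences of the same size but overlapping groups. ASCRPR011642 had 5.21, 5.0 and 4.57 against 4.62, 4.34 and 3.85, a difference of 0.66 (SE 0.25), and ASCRPR002037 had 0.64 (SE 0.26), each with limma adjusted p = 0.428. These were the only named members whose difference kept its sign and exceeded 0.3 in size in every fit made, together with ASCRPR003038, ASCRPR011712, ASCRPR012907 and ASCRPR012050. All but ASCRPR012050 were named for a large group difference or a wide rank range on these same arrays. Every fit also drew on the same arrays, so the stable sign is a description and no separate support. None of the 6 passed in any fit, with limma adjusted p of 0.0519 to 0.777.

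**Figure D4:**
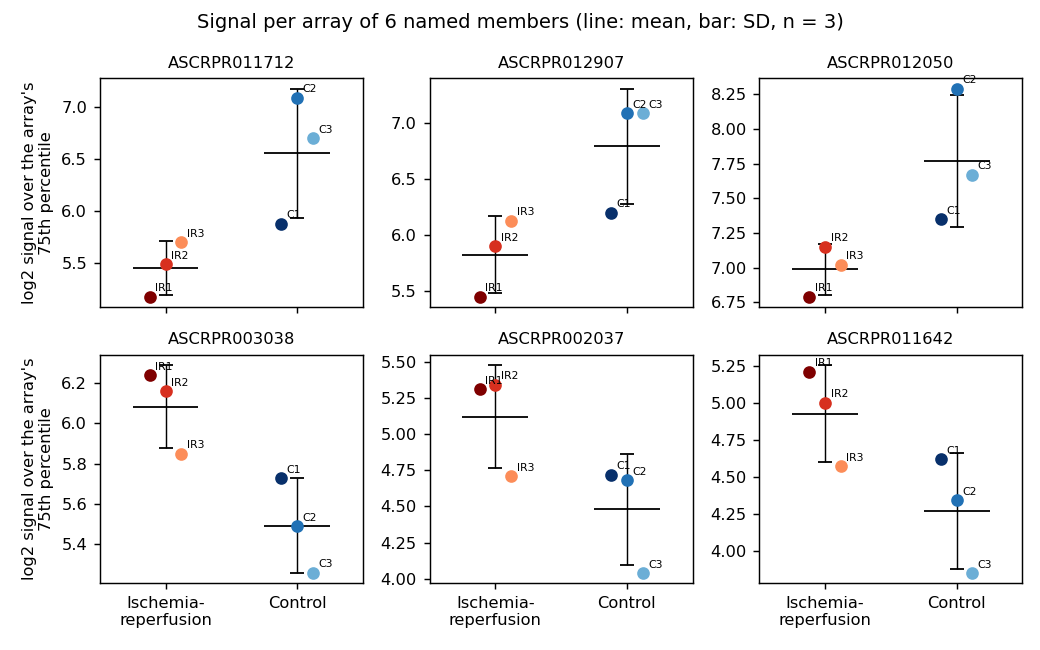
Log2 signal over the array's 75th percentile on each array for 6 named members, as points labelled by array (IR, ischemia-reperfusion, C, control), with the group mean as a line and the SD as a bar (n = 3). Control array 1 is the control nearest to the ischemia-reperfusion values in all 6 members. One case is ASCRPR011712, at 5.88 beside 5.70 on ischemia-reperfusion array 3. None of the 6 differences passed the test.

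Arrays of different groups could be more alike in the members than arrays of 1 group. The rank correlation over the 200 members was highest, at 0.976, between ischemia-reperfusion array 3 and control array 1, and lowest, at 0.713, between ischemia-reperfusion array 1 and control array 3. It was 0.873 to 0.962 within the groups and 0.713 to 0.976 between them. Over all tested probes the ranges were 0.94 to 0.979 and 0.945 to 0.976, and ischemia-reperfusion array 3 and control array 1 had 0.953. These are correlations across probes of single arrays and have no p.

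After each array was centred on the median of the probes compared, the SD of the member-by-member log2 difference was 0.16 between ischemia-reperfusion array 3 and control array 1, where 1 member (0.5%) differed by 1.5-fold or more. Over all tested probes that pair had an SD of 0.52, and 16.1% differed by 1.5-fold. The closeness of this pair in the members was thus not seen over all probes. Between ischemia-reperfusion array 1 and control array 3 the members' SD was 0.63, with 53 members (26.5%) at 1.5-fold, beside 0.58 and 32.9% over all probes. A single pattern, the first principal component, held 71.5% of the variance of 199 members with all values, against 39.7% for all tested probes. Its array weights were -0.53, -0.44 and 0.02 in the ischemia-reperfusion group and -0.05, 0.40 and 0.60 in the control group. Over all probes the weights were -0.41, 0.00 and 0.02, and then -0.58, 0.38 and 0.60. On this scale control array 1 thus stood near 0 in the members and at the negative end over all probes. In the deposited table the members' share was 69.6%, with weights of -0.55, -0.43, 0.03, -0.05, 0.41 and 0.59 in the same order. Over all probes of that table the share was 49.2%, with weights of -0.48, -0.35, -0.06, -0.18, 0.4 and 0.67. There ischemia-reperfusion array 1 stood at the negative end, and control array 1 did not.

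A position code in the scanner headers was read here as slide row and column, which the labels do not state. By that reading ischemia-reperfusion arrays 1 to 3 and control array 1 lay at columns 1 to 4 of the first slide row. Control arrays 2 and 3 lay at columns 1 and 2 of the second row. All arrays came from 1 scan. Within the first slide row, the 3 ischemia-reperfusion arrays against control array 1 gave a median member difference of 0.02, with 93 of 200 negative, beside a median of -0.15 over all tested probes. Against control arrays 2 and 3 of the second row the median was -0.52, with 161 negative, beside -0.02 over all tested probes. In the deposited table the members' medians were -0.02 and -0.11, beside 0.02 and -0.01. With the slide row as a block the median was 0.02 and 0 members reached 1.5-fold at an unadjusted p under 0.05 in either direction, beside 0.224% of all probes higher and 16.1% lower, a fit that sets the ischemia-reperfusion arrays against control array 1 alone. The second row holds controls only, so row and group cannot be told apart there, and the part of slide position in the group differences was not tested.

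**Figure D5:**
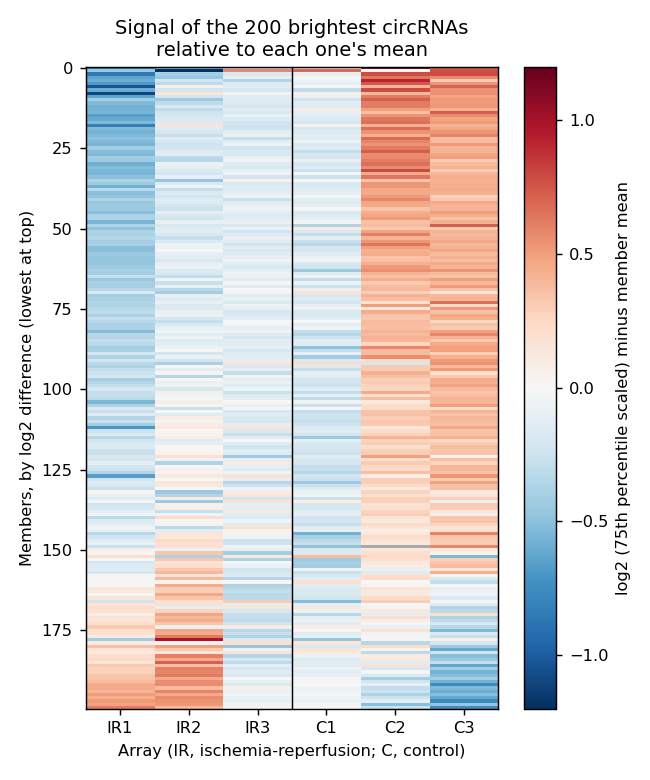
Log2 signal over the array's 75th percentile minus each member's own mean (colour, blue lower and red higher) for the 200 members, sorted by group difference, on the 6 arrays, with a line between the groups. Ischemia-reperfusion array 3 and control array 1, whose member differences had an SD of 0.16, look alike, while ischemia-reperfusion array 1 and control array 3, with an SD of 0.63, differ most. The grey cell is the spot of ASCRPR006667 left out on control array 2.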

How the data were processed

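The authors deposited 1 scanner table per array, with spot intensity on a linear scale made by Agilent Feature Extraction 11.0.1.1, per the file headers. Its processed intensity is background-subtracted and detrended within the array, with no scaling between arrays. The deposited series table holds log2 values by the authors. Its making is not stated. Each column ranked its probes like the median spot intensity of the matching array (rank correlation at least 0.9984, and at most 0.98 with other arrays), the column medians were 5.68 to 5.69, and the exact scaling is unknown. Marks for detection and outliers are those of the scanner software, as deposited.

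Processed intensity was taken to log2 and each array's 75th percentile over circRNA probes was subtracted. Outlier spots were left out. A probe entered the fit if it was marked well above background in every animal of either group. Probes were fitted with limma 3.58.1 (lmFit, eBayes, two-sided) in R 4.3.3, with Benjamini-Hochberg adjustment across the 12967 probes tested. The script was tested on simulated data. Shares, ranks and medians of the set have no test. Members, lists and tests were chosen with earlier results of these data known. Named were the 10 brightest members, the 2 last members and 2 next probes, the members without group overlap in both tables with the largest differences (up to 2 each way), and the 2 with the widest rank range.

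The labels number replicates 1 to 3 in both groups. Deviations of same-numbered arrays from their group means correlated at 0.60, 0.29 and 0.19 over probes, all above the limit of 0.1, so the numbers were treated as pairs in the blocked fit. That pairing rests on the data, not on the labels. A pair with different numbers, ischemia-reperfusion array 2 and control array 3, also passed the limit, at 0.21. The remaining pairs with different numbers had -0.45 to 0.09. Because the block was chosen from these same values, the blocked fit gives no separate support for a difference. Alternatives were other scalings, normexp with an offset of 50 on median intensity (the mean intensity was not used here), no filter, blocks, array weights, other set sizes and each array left out. With 3 arrays a group, their number limits the precision.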

Additional observations from a re-analysis of the deposited data

How the results depend on the processing

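No alternative placed a member past the adjusted threshold of limma: the count was 0 in all 17 other fits and for the sets of other sizes. The lower count at 1.5-fold with an unadjusted p was 20 members, beside 3.42% of all probes. It became 77 with array quality weights (6.22% of all probes) and 8 with median scaling (3.55%). It was 2 with cyclic loess (1.89%), quantile scaling (1.67%), member-median centring (0.0925%) and the deposited table (0.17%). With the slide row as a block it was 0, beside 16.1% of all probes. The higher count was 7, beside 2.16% of all probes. It became 19 with cyclic loess (4.35% of all probes), and 15 with quantile scaling (3.91%) and the deposited table (1.76%). It was 11 with member-median centring (4.47%) and 0 with the slide row block (0.224%). Leaving out 1 array gave 0 to 14 higher and 3 to 77 lower, beside 0.74% to 7.29% and 1.45% to 6.69% of all probes. With 100 and 400 probes in the set the counts were 3 and 20 higher, 13 and 33 lower, as the set size sets by construction. Over all tested probes of that fit the shares were 2.16% higher and 3.42% lower. The median difference of -0.32 moved to -0.02 with cyclic loess, -0.08 with quantile scaling, member-median centring and the deposited table, and 0.02 with the slide row block. Over all tested probes the medians of those fits were -0.02, -0.02, 0.14, -0.01 and -0.15, in the same order. With cyclic loess the members thus had the same median as all probes. The 200 probes next in brightness had -0.14 with quantile scaling and -0.13 in the deposited values, both lower than the members. The cause of these shifts was not tested. With the replicate block, the paired fit, 0 members passed the adjusted threshold, and the median stayed at -0.32, beside -0.11 over all probes. The lower count became 23 and the higher count stayed at 7. No share over all probes was computed for these 1.5-fold counts, so they are not read as a result about the members. At an unadjusted p alone the block moved the lower count from 42 to 81, while the share over all probes moved from 7.53% to 15.3%. The higher count moved from 9 to 13, and that share from 3.91% to 6.84%.

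The share of signal was 42.1% and 44.5% (ischemia-reperfusion, control) on unsubtracted median intensity, 35.4% and 37.7% for 100 probes and 57.4% and 60% for 400. Members in the top set of all arrays were 75.5% by the deposited table and 71.0% for 100 probes.

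The sign of 8 named members reversed in at least 1 fit. ASCRPR003948 became 0.03 with median scaling, 0.49 with cyclic loess, 0.04 in the deposited table, 0.24 with member-median centring, 0.02 with normexp and 0.27 with the slide row block, and -0.21 to 0.20 when 1 array was left out. ASCRPR013743 became 0.01 with median scaling, 0.48 with cyclic loess, 0.22 with member-median centring, 0.06 with quantile scaling and 0.02 with the slide row block, and -0.20 to 0.07 when 1 array was left out. With the slide row block ASCRPR011276 had -0.18, ASCRPR005480 0.00 and ASCRPR008704 0.02. With cyclic loess ASCRPR005480 had 0.16 and ASCRPR005965 0.02. ASCRPR012821 had -0.02 with array quality weights. With 1 array left out ASCRPR011276 reached -0.08, ASCRPR012821 had -0.07 to 0.25 and ASCRPR002894 -0.01 to 0.36.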
